A study of Homo sapiens with 12 samples.

Results

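Aminoacyl-tRNA synthetases are the enzymes that load each tRNA with its amino acid, and 38 genes for them and for the scaffolds that hold some of them together were followed across proteasome inhibition. The list held 19 cytosolic synthetases, 16 mitochondrial synthetases and 3 scaffolds, matched by symbol to Ensembl gene IDs. All 38 were among the 57773 genes counted, and all 38 passed the filter on low counts, which left 14714 genes for testing. GARS1 and KARS1 each encode the enzyme of both compartments and were counted as cytosolic; the aspartyl enzymes were not analysed here.

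The cells were T47D, a luminal breast cancer line carrying a doxycycline-inducible shRNA against PSMD2, a subunit of the 19S cap of the proteasome. Cells in which the shRNA had been induced are called Lo19S here, and cells with the same shRNA left uninduced are the control. The 4 groups of 3 libraries were Lo19S cells given 20 nM bortezomib, control cells given 20 nM bortezomib, Lo19S cells given DMSO and control cells given DMSO, each for 16 h. Induction used 0.2 µg/ml doxycycline for 3 days, and drug or DMSO was added 24 h after the cells were moved to medium without doxycycline. Bortezomib blocks the catalytic core of the proteasome. The shRNA and the exposure to doxycycline cannot be told apart, only 1 shRNA is in the samples used here, and the labels do not say whether the line was a single clone or whether replicates came from separate cultures, so p-values measure the spread between these libraries.

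In animal cells the cytosol and the mitochondrion run separate protein synthesis, and most amino acids have a cytosolic synthetase and a mitochondrial one encoded by different nuclear genes. Some cytosolic synthetases sit in a multisynthetase complex built on the scaffolds AIMP1, AIMP2 and EEF1E1. Several cytosolic synthetase genes are known targets of ATF4, the transcription factor of the integrated stress response, which binds a short element (the CARE, or amino acid response element) in their promoters.

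PSMD2 was lower in Lo19S than in control libraries in both treatments. It stood at 183, 189 and 184 CPM in Lo19S DMSO libraries, against 408, 392 and 417 CPM in control DMSO libraries. With bortezomib it stood at 541, 546 and 539.6 CPM in Lo19S libraries, against 1509, 1510.0 and 1528 CPM in control libraries. Library totals ranged between 7376597 and 15003480 counts. The third control DMSO library stood apart from its group: over the tested genes its chi-square per degree of freedom against the other two was 3.98 and 4.36, whereas all other replicate pairs lay between 1.16 and 2.01. The counts of called members, of pairs and of listed genes below were therefore also made without it. All 7 luminal markers (ESR1, PGR, GATA3, FOXA1, KRT8, KRT18, KRT19) were detected. Their summed level was 2550 to 2710 CPM in Lo19S and 2580 to 2660 CPM in control libraries given bortezomib, against 5330 to 5400 CPM in Lo19S and 6120 to 6230 CPM in control libraries given DMSO, and 6 of the 7 were called lower with bortezomib in both states. The defining markers of leukocytes summed to at most 2.33 CPM and those of endothelial cells to at most 0.321 CPM in any library. Fibroblast markers summed to 44.1 to 47.1 CPM in Lo19S and 63.5 to 69.7 CPM in control libraries given bortezomib, against 33 to 33.8 CPM in Lo19S and 26 to 31.4 CPM in control libraries given DMSO. The part of any marker list in the results was not tested.

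Levels below are read counts scaled to library size with TMM factors (CPM), which set the typical gene equal between libraries. In whole-library units the typical gene itself fell with bortezomib. With library totals in place of TMM, the median log2 fold change of all tested genes was -0.42 in control cells and -0.31 in Lo19S cells, against -0.043 and -0.022 with TMM, so a rise or fall is relative to the typical gene. In bulk RNA, fewer cells of a kind and less RNA per cell cannot be told apart.

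The summed level of the 19 cytosolic synthetases was 7702, 7705 and 7787 CPM in Lo19S libraries given bortezomib, against 4540, 4545 and 4550 CPM in Lo19S libraries given DMSO. It was 6739, 6786 and 6801 CPM in control libraries given bortezomib, against 4631, 4608 and 4532 CPM in control libraries given DMSO. Thus the cytosolic sum was higher in every bortezomib library than in any DMSO library, and highest in Lo19S cells given the drug. The sum of the 16 mitochondrial synthetases was lower with bortezomib, and most of that fall was IARS2, the mitochondrial isoleucyl enzyme. The 16 summed to 908, 927 and 929 CPM in Lo19S and 839.5, 839.6 and 830.2 CPM in control libraries given bortezomib, against 1024, 1012 and 1035 CPM in Lo19S and 1094, 1100.0 and 1047 CPM in control libraries given DMSO. IARS2 alone was 28.9% to 30.1% of that sum in Lo19S and 24.5% to 25.1% in control libraries given bortezomib, against 36.5% to 37.8% in Lo19S and 38.3% to 41.0% in control libraries given DMSO. The other 15 genes summed to 645.5 to 652.9 CPM in Lo19S libraries given bortezomib, against 631.3 to 650.0 CPM with DMSO, and the treatments overlapped. In control libraries the other 15 summed to 626.8 to 631.4 CPM with bortezomib, against 645.4 to 649.6 CPM with DMSO. The ratio of the cytosolic to the mitochondrial sum, which library scaling does not touch, was 8.31 to 8.48 in Lo19S and 8.03 to 8.19 in control libraries given bortezomib, against 4.40 to 4.49 in Lo19S and 4.19 to 4.33 in control libraries given DMSO. The groups did not overlap in this ratio. Without IARS2 the ratio was 11.8 or more in Lo19S and 10.7 to 10.9 in control libraries given bortezomib, against 6.99 to 7.20 in Lo19S and 7.02 to 7.13 in control libraries given DMSO, where the states overlapped. This removal of IARS2 was chosen after seeing the data. All 38 genes together took 0.812% to 0.825% of counts in Lo19S and 0.666% to 0.669% in control libraries given bortezomib, against 0.649% to 0.653% in Lo19S and 0.645% to 0.662% in control libraries given DMSO.

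**Figure D1:**
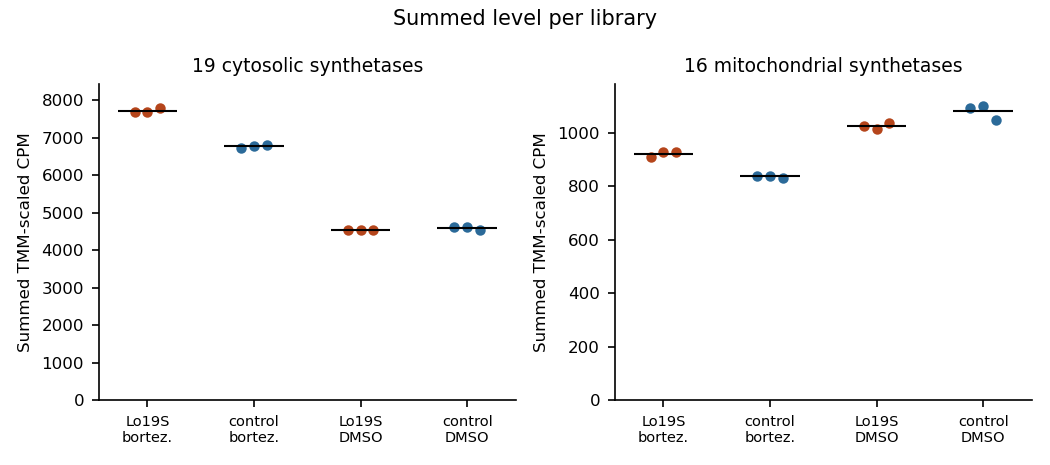
Summed TMM-scaled CPM of the 19 cytosolic (left) and 16 mitochondrial (right) synthetases; each point is a library, the line is the mean of the 3 libraries of a group, and both axes start at 0. The cytosolic sum is 6739 to 7787 CPM with bortezomib and 4532 to 4631 CPM with DMSO, while the mitochondrial sum is lower with bortezomib than with DMSO in both states, mostly through IARS2. Without IARS2 the sum in Lo19S cells is 645.5 to 652.9 CPM with bortezomib and 631.3 to 650.0 CPM with DMSO. In control cells it is still lower, at 626.8 to 631.4 CPM with bortezomib and 645.4 to 649.6 CPM with DMSO.

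Per kilobase of exon, cytosolic synthetases were also the more abundant class before any treatment: in control DMSO libraries the median gene stood at 36.1 to 37.9 CPM per kb among cytosolic members and 8.69 to 8.89 CPM per kb among mitochondrial members. AARS1, the alanyl enzyme, led the cytosolic class at 103 CPM per kb and CARS1, the cysteinyl enzyme, was lowest at 8.1 CPM per kb. IARS2, the mitochondrial isoleucyl enzyme, stood apart from its class at 104 CPM per kb, with HARS2 next at 30.3 CPM per kb and SARS2 lowest at 1.54 CPM per kb. SARS2 shares 46.2% of its exonic bases with a gene on the same strand, so its counts are uncertain.

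Most cytosolic synthetases rose with bortezomib in control cells. At an edgeR adjusted p below 0.05, 14 of 19 cytosolic members were higher and 4 lower than with DMSO, where 81.4% of all tested genes were called, 39.2% higher and 42.2% lower. Their median log2 fold change was 0.63, against -0.043 over all tested genes. WARS1, the tryptophanyl enzyme, GARS1, the glycyl enzyme, SARS1, the seryl enzyme, IARS1, the isoleucyl enzyme, and HARS1, the histidyl enzyme, rose at least 2-fold. Of all 14714 tested genes, 2131 were called higher by at least 2-fold. Both statements hold on the TMM scale, and library totals make every rise smaller. With library totals the split was 11 higher and 7 lower, and AARS1 and KARS1 turned round in sign. Without the third control DMSO library the counts were again 14 and 4.

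WARS1 had 576, 579 and 591 CPM in control libraries given bortezomib, against 206, 214 and 213 CPM with DMSO, a 2.76-fold rise (log2 1.47, SE 0.035, adjusted p = 9.91e-37, edgeR). GARS1 had 705, 683 and 724 CPM with bortezomib, against 295, 296 and 301 CPM with DMSO (log2 1.24, SE 0.034, adjusted p = 2.06e-34, edgeR). SARS1 had 216, 208 and 214 CPM with bortezomib, against 96.2, 98.2 and 88.6 CPM with DMSO (log2 1.17, SE 0.043, adjusted p = 8.64e-29, edgeR). In all 3 genes the lowest bortezomib library lay above the highest DMSO library by far more than the spread within a group. The remaining called rises, as log2 fold change ± SE, ran down from IARS1 (1.02 ± 0.035) and HARS1 (1.01 ± 0.037) through YARS1 for tyrosine (0.96 ± 0.040), CARS1 (0.83 ± 0.047), TARS1 for threonine (0.82 ± 0.041) and EPRS1, the fused glutamyl-prolyl enzyme (0.73 ± 0.042). MARS1 for methionine (0.63 ± 0.036), NARS1 for asparagine (0.57 ± 0.045), FARSB, the beta subunit of the phenylalanyl enzyme (0.47 ± 0.046), AARS1 (0.26 ± 0.032) and KARS1 for lysine (0.24 ± 0.034) rose less. MARS1 shares 355 exonic bases on the opposite strand with DDIT3, a stress gene that went up 4.02 ± 0.055 on the log2 scale, and without a stated strand setting for the counting the MARS1 value is uncertain.

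The 4 cytosolic members that fell in control cells were QARS1, LARS1, VARS1 and FARSA. QARS1, the glutaminyl enzyme, averaged 147 ± 2.41 CPM with bortezomib and 250.4 ± 10.2 CPM with DMSO (SD, n = 3 each; log2 -0.76, SE 0.042, adjusted p = 4.4e-22, edgeR). FARSA, the alpha subunit of the phenylalanyl enzyme, averaged 96.0 ± 3.45 CPM with bortezomib and 140.0 ± 11.1 CPM with DMSO (SD, n = 3 each), a log2 fold change of -0.54 ± 0.050. Its partner subunit FARSB moved the opposite way in the same libraries, so the level of one subunit's transcript relative to the other changed. LARS1 for leucine changed by -0.36 ± 0.040 and VARS1 for valine by -0.23 ± 0.046. RARS1, the arginyl enzyme, was not called: it had 241, 246 and 247 CPM with bortezomib, against 248, 241 and 226 CPM with DMSO, and the groups overlapped. With library totals RARS1 was lower by a log2 fold change of -0.34.

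Members inside and outside the multisynthetase complex can be set side by side. Of the 7 inside it (EPRS1, IARS1, KARS1, LARS1, MARS1, QARS1, RARS1), 4 were higher and 2 lower in control cells, with a median log2 fold change of 0.24. Of the 12 outside it, 10 were higher and 2 lower, with a median of 0.82. Over all tested genes 39.2% were higher and 42.2% lower, with a median of -0.043. With library totals the median inside the complex was -0.14 and that outside 0.44, beside -0.42 for all genes. These are descriptions of 2 lists, and the difference between them was not tested.

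Mitochondrial synthetases gave few rises. In control cells 3 of 16 were higher and 7 lower, with a median log2 fold change of -0.12; with library totals 1 was higher and 12 lower, and AARS2 and HARS2 turned round in sign. Without the third control DMSO library the counts were 3 and 6. The 7 of 16 that were lower is a share near the 42.2% of all genes, and the 3 of 16 that were higher is below the 39.2% of all genes. Its members ranged widely, between IARS2 and RARS2 at the ends. IARS2 had 208, 211 and 203 CPM in control libraries given bortezomib, against 445, 451 and 401 CPM with DMSO, a 2.08-fold fall (log2 -1.06, SE 0.040, adjusted p = 1.96e-28, edgeR). RARS2, the mitochondrial arginyl enzyme, had 79.3, 74.0 and 79.4 CPM with bortezomib, against 38.5, 36.3 and 31.4 CPM with DMSO (log2 1.12, SE 0.066, adjusted p = 6.55e-21, edgeR). These were opposite changes of about the same size, with no overlap between treatments in either gene. TARS2, the mitochondrial threonyl enzyme, had 39.8, 35.9 and 36.0 CPM with bortezomib, against 61.4, 64.2 and 65.0 CPM with DMSO (log2 -0.77, SE 0.063, adjusted p = 1.33e-15, edgeR).

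VARS2, NARS2, FARS2, EARS2 and CARS2 made up the other called falls of the class in control cells, at log2 fold changes of -0.71 ± 0.10, -0.61 ± 0.086, -0.42 ± 0.10, -0.23 ± 0.049 and -0.16 ± 0.069. The CARS2 call was lost without the third control DMSO library, where its adjusted p was 0.0775 (edgeR), and also without the first or the third control bortezomib library or the second Lo19S bortezomib library (adjusted p 0.116, 0.144 and 0.0655). AARS2 (0.30 ± 0.076) and HARS2 (0.12 ± 0.046) rose; HARS2 missed the threshold without the second control bortezomib library, at an adjusted p of 0.0554. YARS2, LARS2, MARS2, PARS2, SARS2 and WARS2 were not called. PARS2 was called lower without the second or the third Lo19S DMSO, the first control bortezomib or the second control DMSO library. Its log2 fold change was then -0.36 to -0.45 (adjusted p 0.0442 to 0.0479, edgeR). VARS2 shares 22.0% of its exonic bases with a same-strand neighbour, GTF2H4, and is uncertain for that reason.

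**Figure D2:**
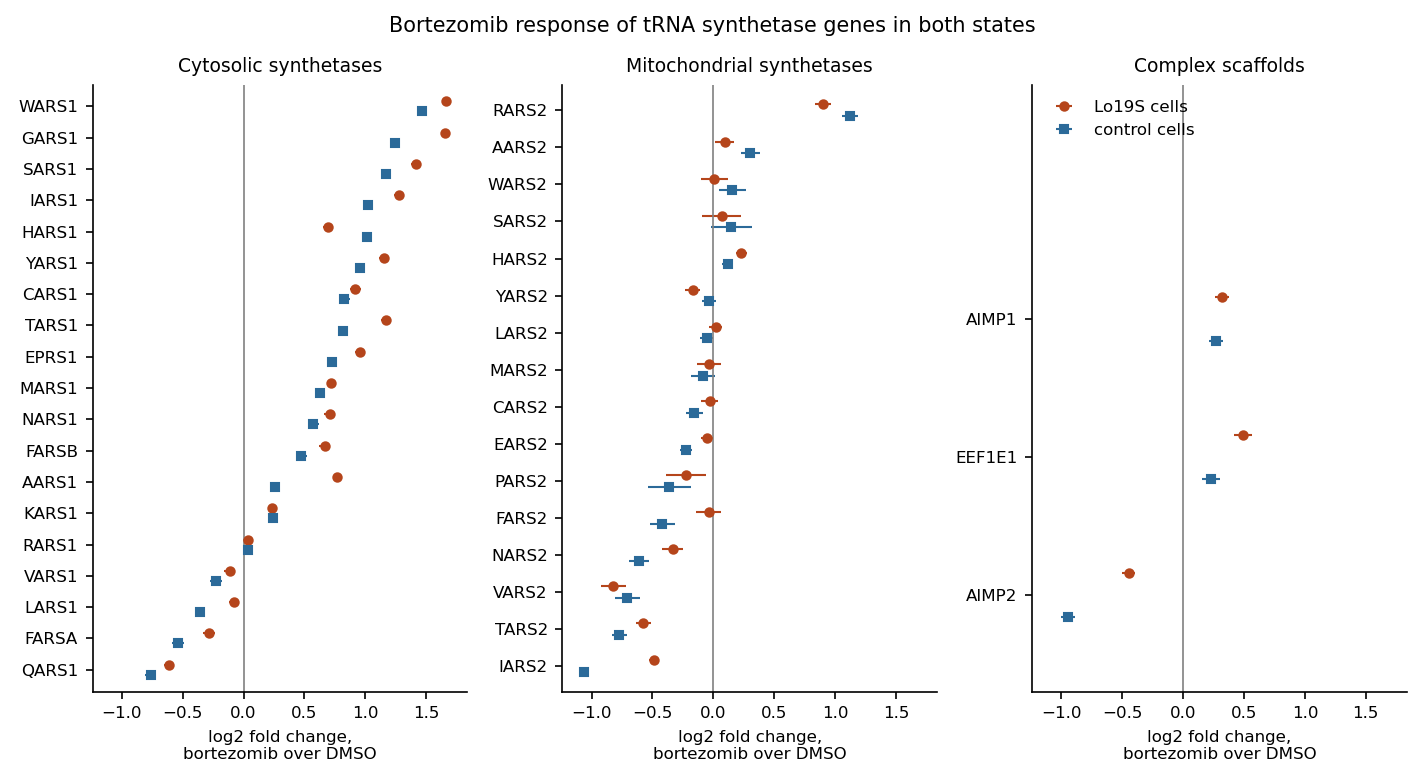
Bortezomib response of each synthetase and scaffold gene as log2 fold change over DMSO (x axis), with Lo19S cells as circles above and control cells as squares below; bars are ±1 SE of the edgeR fit. On the TMM scale most cytosolic genes lie right of 0 and several are further right in Lo19S cells, while IARS2, TARS2, VARS2 and NARS2 lie left of 0 in both; with library totals AARS1, AIMP1 and EEF1E1 in control cells, LARS2 in Lo19S cells and KARS1, RARS1, AARS2, HARS2, SARS2 and WARS2 in both states turn left of 0.

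Pairs of a cytosolic and a mitochondrial gene were compared for 13 amino acids by their log2 fold changes between groups. Library scaling shifts both genes of a pair alike and so does not affect the difference within a pair. The fused EPRS1 (with EARS2 and PARS2) and the subunits FARSA and FARSB (with FARS2) were left out of these pairs. Of these, FARSA had a more negative log2 fold change than FARS2 in control cells, whereas EPRS1 and FARSB rose. In control cells the cytosolic partner's log2 fold change exceeded that of the mitochondrial partner in 10 of 13 pairs, by a median of 0.99 (10 pairs and 0.97 without the third control DMSO library); this count was not tested. The isoleucyl pair was widest, at 1.02 for IARS1 and -1.06 for IARS2, followed by the threonyl pair at 0.82 for TARS1 and -0.77 for TARS2. The exceptions were the arginyl pair, at 0.040 for RARS1 and 1.12 for RARS2, the leucyl pair, at -0.36 for LARS1 and -0.055 for LARS2, and the alanyl pair, at 0.26 for AARS1 and 0.30 for AARS2. Across the 13 pairs the 2 responses had a Pearson r of -0.11 and a Spearman rho of 0.05, given as a description because all points share the same libraries.

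**Figure D3:**
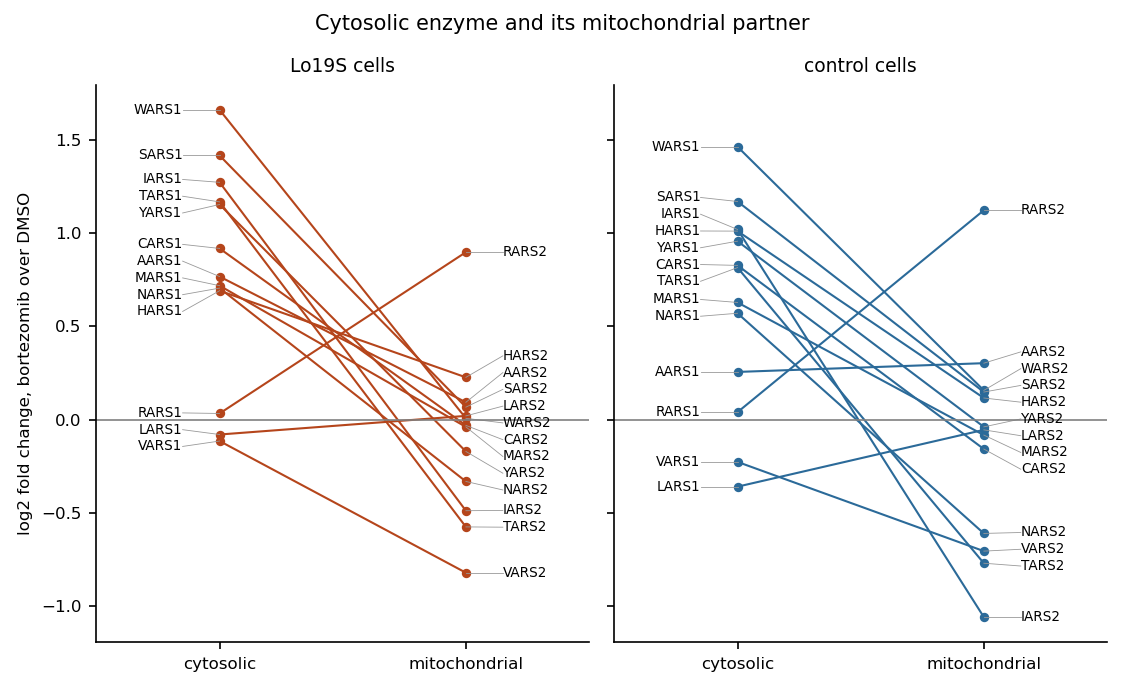
Log2 fold change with bortezomib over DMSO (y axis, TMM scale) of the cytosolic gene, joined to the mitochondrial gene for the same amino acid, in Lo19S cells (left) and control cells (right). The cytosolic gene lies higher in 11 of 13 pairs in Lo19S cells and in 10 of 13 in control cells, with the arginyl pair the clearest exception; library totals would move both ends of a line down by the same amount.

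HARS1 and HARS2 lie head to head, and the 84 bases between their start sites show what the pair shares. The stretch is from RefSeq (GRCh38.p14), is 59.5% G or C, and capitals mark CCGGAAGT, a motif of ETS-family factors, searched on both strands. That motif is in the promoter windows (250 bases before to 50 after each start) of 4.95% of 27305 genes, and in this stretch it occurs near each start site.
HARS1 and HARS2 (chr5:140691371-140691454, plus strand): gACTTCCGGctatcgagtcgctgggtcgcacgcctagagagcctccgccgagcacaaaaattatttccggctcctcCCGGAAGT
On either side of this stretch HARS1 rose 2.02-fold and HARS2 1.08-fold with bortezomib in control cells, although HARS2 was lower with library totals (log2 -0.27). HARS1 and HARS2 share 437 exonic bases on opposite strands, which is 11.7% of the exons of HARS2, so part of the HARS2 value could be counted from HARS1 if strand was not used.

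The CARE is written here as TGATGNAA and was searched in the same RefSeq windows on both strands. Windows matched 33 of the 38 members; LARS1, VARS1, YARS1, AARS2 and VARS2 had none. The CARE was in the windows of 7 of 16 cytosolic members, 1 of 14 mitochondrial members and 0 of 3 scaffolds, beside 4.46% of all 27305 genes. Other motifs were searched too. The ETS motif was in 5, 3 and 0 of these members, beside 4.95% of all genes. The antioxidant response element (TGACNNNGC) was in 4, 2 and 2, beside 16.1%. A heat shock element pair (GAANNTTC) was in 2, 1 and 1, beside 8.21%, and the E-box (CACGTG) in 1, 3 and 1, beside 8.77%. The 60 bases of each CARE match are shown because most CARE matches lie in cytosolic genes, with the CARE in capitals.
AARS1 (chr16:70289678-70289737, minus strand): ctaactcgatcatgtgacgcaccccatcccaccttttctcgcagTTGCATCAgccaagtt
CARS1 (chr11:3057410-3057469, minus strand): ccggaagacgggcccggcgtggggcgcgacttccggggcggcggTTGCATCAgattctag
GARS1 (chr7:30594801-30594860, plus strand): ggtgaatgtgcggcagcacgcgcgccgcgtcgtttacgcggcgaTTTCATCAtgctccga
IARS1 (chr9:92293695-92293754, minus strand): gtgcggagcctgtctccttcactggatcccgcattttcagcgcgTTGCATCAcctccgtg
MARS1 (chr12:57488020-57488079, plus strand): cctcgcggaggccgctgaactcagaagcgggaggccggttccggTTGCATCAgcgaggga
NARS1 (chr18:57621807-57621866, minus strand): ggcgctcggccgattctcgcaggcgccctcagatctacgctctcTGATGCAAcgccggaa
TARS1 (chr5:33440923-33440982, plus strand): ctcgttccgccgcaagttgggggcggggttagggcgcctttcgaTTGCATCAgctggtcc
YARS2 (chr12:32756079-32756138, minus strand): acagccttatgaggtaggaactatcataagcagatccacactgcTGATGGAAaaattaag
The element began between 33 bases before and 14 bases after the start site in 6 of the cytosolic genes, and 187 bases before it in AARS1. In 5 of these 7 genes the letters were TTGCATCA, in GARS1 TTTCATCA and in NARS1, on the other strand, TGATGCAA, whereas the YARS2 match, TGATGGAA, lay 197 bases before its start. All 7 cytosolic genes with a CARE match rose with bortezomib in control cells, at log2 fold changes of 0.26 to 1.24 with a median of 0.82. Of the 9 cytosolic genes whose windows had none, 6 rose and 2 fell, with a median of 0.47, and WARS1, with the highest fold change of the class, was among them. Among all tested genes 39.2% were higher and 42.2% lower. With library totals AARS1 was lower, so that 6 of the 7 kept their direction. Among the 9 without a match, KARS1 (-0.14) and RARS1 (-0.34) were then called lower too. YARS2 changed by -0.039 ± 0.058 and was not called. Without the third control DMSO library the same counts held, with medians of 0.76 with a match and 0.46 without one. A match is a description of letters in a window and shows no binding.

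Among the scaffolds, AIMP2 moved against the other two. AIMP2 had 49.0, 47.5 and 48.4 CPM in control libraries given bortezomib, against 96.0, 89.2 and 93.8 CPM with DMSO, a 1.93-fold fall (log2 -0.95, SE 0.057, adjusted p = 2.11e-20, edgeR). AIMP1 had 109.8, 107 and 109 CPM with bortezomib, against 94.0, 97.7 and 78.3 CPM with DMSO (log2 0.27, SE 0.056, adjusted p = 2.73e-05, edgeR). EEF1E1 had 37.1, 35.6 and 37.0 CPM with bortezomib, against 30.7, 30.4 and 32.6 CPM with DMSO (log2 0.23, SE 0.075, adjusted p = 0.00478, edgeR). The fall of AIMP2 was called under every alternative, whereas the rises of AIMP1 and EEF1E1 turned to log2 fold changes of -0.11 and -0.15 with library totals. AIMP2 shares 28.9% of its exonic bases on the opposite strand with EIF2AK1, and EEF1E1 18.7% with a same-strand readthrough gene, so both are uncertain to that extent.

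Lo19S cells gave a similar list of called genes with bortezomib. In Lo19S cells 14 of 19 cytosolic members were higher and 3 lower (edgeR adjusted p below 0.05), where 77.5% of all tested genes were called, 37.8% higher and 39.7% lower. Their median log2 fold change was 0.72 against -0.022 over all genes. The same 14 genes were higher in both states and 3 (QARS1, FARSA, VARS1) were lower in both; these comparisons share no library. WARS1 had 721, 706 and 715 CPM in Lo19S libraries given bortezomib, against 220.4, 231 and 225 CPM with DMSO (log2 1.66, SE 0.035, adjusted p = 7.04e-39, edgeR). GARS1 had 905, 914 and 933 CPM with bortezomib, against 293, 289.5 and 290.0 CPM with DMSO (log2 1.66, SE 0.034, adjusted p = 2.57e-39, edgeR). Both rose more than 3-fold and without overlap between treatments.

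SARS1, IARS1, TARS1 and YARS1 followed, at log2 fold changes of 1.42 ± 0.043, 1.27 ± 0.035, 1.17 ± 0.041 and 1.16 ± 0.040. EPRS1, CARS1, AARS1, MARS1, NARS1, HARS1 and FARSB rose by 0.95, 0.92, 0.77, 0.72, 0.71, 0.69 and 0.67, and KARS1 by 0.23, although KARS1 alone of these 14 turned negative with library totals, at -0.053. LARS1, lower in control cells, was not called in Lo19S cells (-0.080 ± 0.040), but without the third control DMSO library it was called lower at -0.077 with an adjusted p of 0.00592 (edgeR). The VARS1 call, at -0.12 ± 0.046, was lost without the first or second Lo19S DMSO library (adjusted p 0.114 and 0.0772) and without the first or the third Lo19S bortezomib library (0.163 and 0.0605). With library totals 13 cytosolic members were higher and 5 lower.

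Of the mitochondrial members in Lo19S cells, 2 of 16 were higher (HARS2 and RARS2) and 5 lower (VARS2, TARS2, IARS2, NARS2 and YARS2), with a median log2 fold change of -0.04. Among all tested genes 37.8% were higher and 39.7% lower, so both shares of the class were below those of all genes. With library totals 1 was higher and 13 lower. IARS2 had 263, 274 and 279 CPM in Lo19S libraries given bortezomib, against 374, 381 and 391 CPM with DMSO (log2 -0.49, SE 0.039, adjusted p = 9.51e-16, edgeR). RARS2 had 71.7, 74.8 and 74.2 CPM with bortezomib, against 40.4, 36.4 and 41.8 CPM with DMSO (log2 0.90, SE 0.065, adjusted p = 2.18e-17, edgeR). TARS2 had 41.0, 41.1 and 42.9 CPM with bortezomib, against 63.3, 60.7 and 63.2 CPM with DMSO (log2 -0.58, SE 0.061, adjusted p = 6.64e-12, edgeR). So the end points of the class in control cells, IARS2 and RARS2, stayed on their own sides of 0. VARS2 changed by -0.82 ± 0.10, NARS2 by -0.33 ± 0.086 and HARS2 by 0.23 ± 0.045, while YARS2 (-0.17 ± 0.059) lost its call without the second or the third Lo19S bortezomib library (adjusted p 0.0701 and 0.0637, edgeR). PARS2 was called lower without the third Lo19S DMSO library (-0.37, adjusted p 0.0435, edgeR). The cytosolic partner's log2 fold change exceeded that of the mitochondrial partner in 11 of 13 pairs, by a median of 0.95.

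The scaffolds repeated their pattern in Lo19S cells. AIMP2 had 70.4, 68.2 and 63.5 CPM in Lo19S libraries given bortezomib, against 93.1, 92.9 and 87.4 CPM with DMSO (log2 -0.45, SE 0.054, adjusted p = 2.46e-10, edgeR). AIMP1 and EEF1E1 were higher, at 0.32 ± 0.056 and 0.49 ± 0.074. For AIMP1 that was 106, 103 and 110.3 CPM with bortezomib, against 86.5, 83.6 and 87.0 CPM with DMSO, and for EEF1E1 42.4, 34.7 and 41.6 CPM, against 28.3, 28.7 and 28.5 CPM. In EEF1E1 the second bortezomib library was the lowest of its group and still above all DMSO libraries. The fall of AIMP2 was called under every alternative, but only 1 of the 2 rises was.

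The test of the difference between the 2 responses, in Lo19S minus in control cells, separated the states. At an edgeR adjusted p below 0.05 the difference was positive in 12 of 19 cytosolic members and negative in 1, HARS1, where it was called in 27.8% of all tested genes, positive in 14.4% and negative in 13.4%. Its median was 0.20 over cytosolic members, 0.092 over mitochondrial members and 0.01 over all genes, and library totals moved the median of all genes to 0.10. Of the 13 called cytosolic members, 10 positive ones and HARS1 were called under every alternative. QARS1 and FARSB were not: QARS1 lost its call without the first or the third Lo19S bortezomib, any control bortezomib, or the second or the third Lo19S DMSO library (adjusted p 0.0563 to 0.124) and FARSB without the first Lo19S DMSO library or the first or second control bortezomib library (0.0512, 0.065 and 0.0574).

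AARS1 differed most among cytosolic members. It had 737, 723 and 732 CPM in Lo19S and 552, 547 and 561 CPM in control libraries given bortezomib, against 427, 433 and 428 CPM in Lo19S and 466, 456 and 468 CPM in control libraries given DMSO. The difference of the log2 responses was 0.51 ± 0.046 (SE; adjusted p = 1.02e-12, edgeR), made of a response of 0.77 in Lo19S cells and 0.26 in control cells. GARS1 differed by 0.41 ± 0.047 (adjusted p = 1.33e-09, edgeR), with Lo19S bortezomib libraries above all control bortezomib libraries and nearly equal DMSO levels. TARS1 had 345, 350.0 and 358 CPM in Lo19S and 300.5, 298 and 284 CPM in control libraries given bortezomib, against 159.6, 156 and 152 CPM in Lo19S and 174, 173 and 154 CPM in control libraries given DMSO, a difference of 0.35 ± 0.058 (adjusted p = 4.55e-06, edgeR). IARS1, SARS1, EPRS1, WARS1 and YARS1 differed by 0.25, 0.25, 0.23, 0.20 and 0.20 in the same direction. In FARSA and LARS1 the positive difference, 0.26 and 0.28, stood for a less negative response in Lo19S cells. In 6 cytosolic members the difference was not called: NARS1 (0.14 ± 0.063), VARS1 (0.11 ± 0.065), MARS1 (0.090 ± 0.051), CARS1 (0.090 ± 0.066), KARS1 (-0.0070 ± 0.048) and RARS1 (-0.0070 ± 0.055). MARS1 was called without the second control DMSO library (0.13, adjusted p 0.0476, edgeR).

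HARS1 went the other way. It had 337, 340.2 and 324 CPM in Lo19S and 386, 388 and 382 CPM in control libraries given bortezomib, against 209, 201 and 209 CPM in Lo19S and 194, 183 and 195 CPM in control libraries given DMSO. Every Lo19S bortezomib library was thus below every control bortezomib library while the DMSO order was reversed, and the difference was -0.32 ± 0.053 (adjusted p = 4.69e-06, edgeR). Its head-to-head neighbour HARS2 differed by 0.11 ± 0.064 and was not called.

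**Figure D4:**
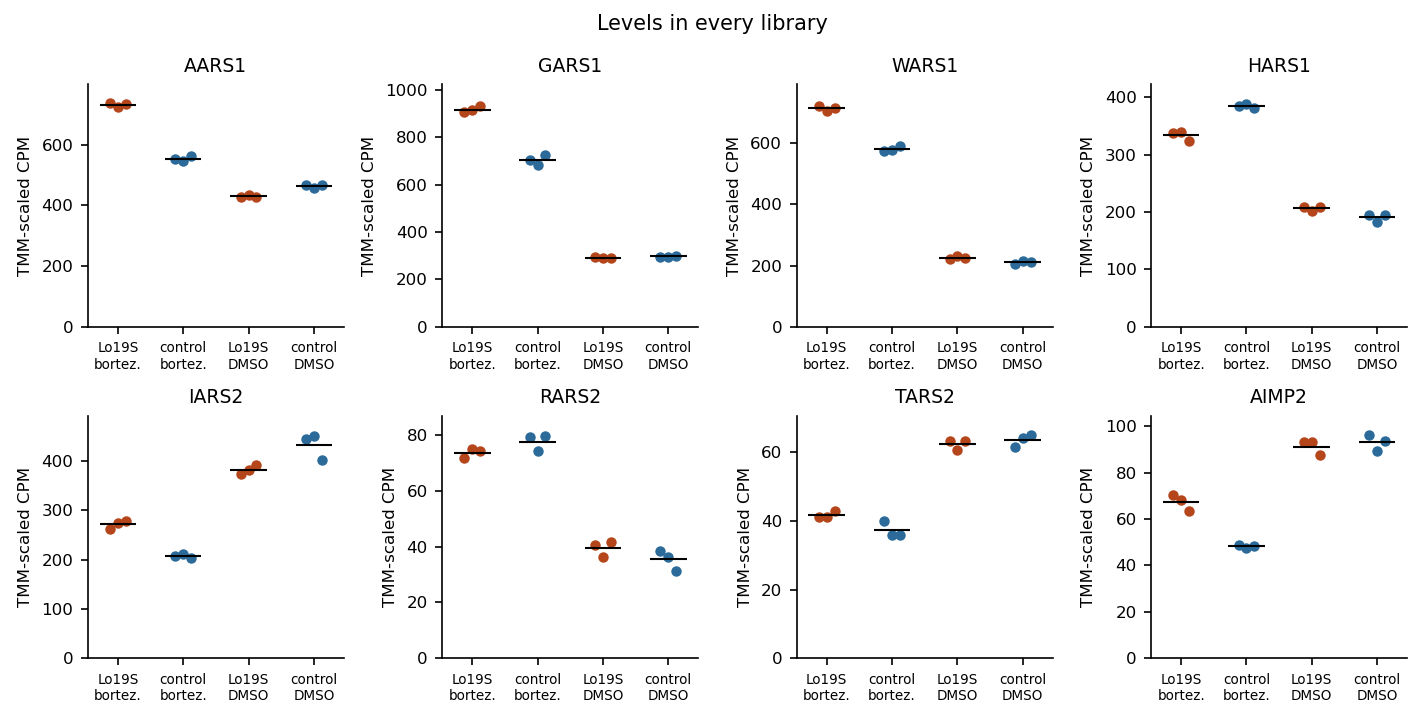
TMM-scaled CPM per library of 8 members in Lo19S bortezomib, control bortezomib, Lo19S DMSO and control DMSO groups; points are libraries, lines are means of 3, and axes start at 0. AARS1, GARS1 and WARS1 are highest in Lo19S cells given bortezomib, HARS1 in control cells given bortezomib, and IARS2 and AIMP2 are less low in Lo19S than in control cells given the drug; with library totals the AARS1 rise in control cells turns to a log2 fold change of -0.13.

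Of the mitochondrial members, 3 had a called positive difference and 0 a negative one in edgeR; at an unadjusted p below 0.05 the counts were 5 and 1, and DESeq2 called 1 and 0. The 3 of 16 is near the 14.4% of all tested genes with a called positive difference. IARS2 was the called gene that stayed under every alternative, with a difference of 0.57 ± 0.056 (adjusted p = 1.82e-11, edgeR): its fall was -0.49 in Lo19S cells and -1.06 in control cells. FARS2, the mitochondrial phenylalanyl enzyme, had 18.8, 16.8 and 17.9 CPM in Lo19S and 14.9, 13.5 and 13.6 CPM in control libraries given bortezomib, against 19.1, 15.6 and 20.7 CPM in Lo19S and 18.5, 18.7 and 18.9 CPM in control libraries given DMSO (difference 0.38, SE 0.14, adjusted p = 0.0431, edgeR). EARS2, the mitochondrial glutamyl enzyme, had 98.1, 107 and 107 CPM in Lo19S and 91.1, 92.8 and 89.4 CPM in control libraries given bortezomib, against 111, 105 and 107 CPM in Lo19S and 108, 108 and 104 CPM in control libraries given DMSO (difference 0.18, SE 0.068, adjusted p = 0.0468, edgeR). In both genes the control bortezomib group was the lowest of the 4. Neither call was firm: FARS2 lost it without the first or the third Lo19S bortezomib, second or the third control bortezomib, second Lo19S DMSO, or first or second control DMSO library (adjusted p 0.0554 to 0.176) and EARS2 without the second or the third Lo19S bortezomib, any control bortezomib, the second or the third Lo19S DMSO, or the first or second control DMSO library (0.0581 to 0.142). Without the third control DMSO library AARS2 (-0.29, adjusted p 0.0183) and NARS2 (0.39, adjusted p 0.00269) were also called, as was the cytosolic NARS1 (0.20, adjusted p 0.00149, edgeR). RARS2 was called lower, at -0.29 and -0.28, without the first control DMSO or the second Lo19S DMSO library (adjusted p 0.0225 and 0.0321, edgeR). AIMP2 was the called scaffold, at 0.50 ± 0.079 (adjusted p = 2.1e-06, edgeR), while AIMP1 and EEF1E1 differed by 0.052 ± 0.079 and 0.26 ± 0.10 and were not called.

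Read directly between the states under bortezomib, 15 of 19 cytosolic members were higher in Lo19S than in control cells and 1, HARS1, was lower (edgeR adjusted p below 0.05), where 43.1% of all tested genes were called, 22.0% higher and 21.2% lower. The median log2 fold change was 0.17 over cytosolic members, 0.078 over mitochondrial members and 0.004 over all genes, or 0.28, 0.19 and 0.12 with library totals. AARS1 (0.40 ± 0.032), GARS1 (0.38 ± 0.032), LARS1 (0.32 ± 0.041) and WARS1 (0.30 ± 0.033) led the list and HARS1 stood at -0.21 ± 0.036. The called members included QARS1 and FARSA, which had fallen with the drug, and RARS1, which had not been called in either state. Of the 15, 10 were higher under every alternative. CARS1, FARSB, RARS1, VARS1 and YARS1 were not: each lost its call without some single bortezomib library (adjusted p 0.053 to 0.132, edgeR), and no DMSO library did this. Without the third control DMSO library MARS1 joined the higher ones (0.074, adjusted p 0.0105, edgeR). Mitochondrial members were higher in 5 of 16 and lower in 1, or 6 and 0 with library totals. IARS2 (0.39 ± 0.041), FARS2 (0.36 ± 0.11), EARS2 (0.19 ± 0.050), TARS2 (0.17 ± 0.069) and HARS2 (0.15 ± 0.046) were the higher ones and YARS2 (-0.24 ± 0.061) the lower one. TARS2 lost its call without the first or the third Lo19S or the second or the third control bortezomib library (adjusted p 0.0502 to 0.17, edgeR). Without the third Lo19S bortezomib library VARS2 was also lower (-0.41, adjusted p 0.0132, edgeR). AIMP2 was 1.39-fold higher in Lo19S cells. Without the second Lo19S bortezomib library EEF1E1 was also called higher (0.20, adjusted p 0.0308), and its difference of responses was called as well (0.33, adjusted p 0.0149, edgeR).

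Without the drug few members passed the test between the states. Under DMSO 3 of 19 cytosolic members were higher in Lo19S than in control cells and 1 lower (edgeR adjusted p below 0.05), beside 11.7% and 13.0% of all tested genes, 24.7% in all. Of the 16 mitochondrial members 0 were higher in edgeR (1 at an unadjusted p below 0.05, 0 in DESeq2) and 2 lower. None of the 3 scaffolds was called by edgeR or DESeq2, and 0 of them reached an unadjusted p below 0.05. Every member's log2 fold change lay between -0.20 (NARS2) and 0.27 (SARS2, not called).

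IARS2 was the member lower in Lo19S cells under every alternative: it had 374, 381 and 391 CPM in Lo19S DMSO libraries, against 445, 451 and 401 CPM in control DMSO libraries (log2 -0.18, SE 0.038, adjusted p = 0.000231, edgeR). AARS1 was lower at 427, 433 and 428 CPM in Lo19S, against 466, 456 and 468 CPM in control (log2 -0.11, SE 0.032, adjusted p = 0.00811, edgeR), and missed the threshold when only the 2 groups were fitted (adjusted p 0.0574). HARS1 (0.11 ± 0.038), RARS1 (0.11 ± 0.038) and WARS1 (0.098 ± 0.036) were higher. NARS2, the mitochondrial asparaginyl enzyme, had 31.0, 29.3 and 32.3 CPM in Lo19S, against 37.8, 38.5 and 29.7 CPM in control, and the third control library lay inside the Lo19S range. The log2 fold change of NARS2 was -0.205 with all libraries and -0.313 without that one (adjusted p 0.000128, edgeR).

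These calls moved with single libraries. Without the third control DMSO library 2 cytosolic members were higher and 6 lower: EPRS1 (-0.13), IARS1 (-0.086), NARS1 (-0.17), SARS1 (-0.12) and TARS1 (-0.15) joined AARS1, and RARS1 lost its call (0.074, adjusted p 0.0726, edgeR), as it did without the second or the third Lo19S DMSO library (adjusted p 0.114 and 0.0844). The scaffold AIMP1 was then lower as well (-0.16, adjusted p 0.00283, edgeR). Over all genes, 4603 were called without the third control DMSO library, against 3628 with all 12 libraries, so calls rose beyond the members too. Without the second or the third Lo19S DMSO library the count of higher cytosolic members was 1 and 0. NARS2 lost its call without any single library other than the third Lo19S bortezomib and the third control DMSO ones (adjusted p 0.0501 to 0.24, edgeR). WARS1 lost it without the third Lo19S bortezomib, any control bortezomib, the second or the third Lo19S DMSO or the first control DMSO library (0.054 to 0.203), and HARS1 without the first or the third Lo19S DMSO or the second control DMSO library (0.097 to 0.174). Without the first control DMSO library RARS2 was called higher (0.22, adjusted p 0.0414, edgeR).

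Genes that work beside the synthetases were read from lists. Of 11 genes of tRNA maturation, repair and export, 8 were called higher with bortezomib in Lo19S cells and 9 in control cells (edgeR), beside 37.8% and 39.2% of all tested genes, with medians of 0.26 and 0.35; with library totals the split was 5 higher and 2 lower in Lo19S cells and 5 and 4 in control cells, and both medians turned just below 0, to -0.024 and -0.030. XPOT, the exportin of tRNA, had 732, 743 and 769.5 CPM in Lo19S and 654, 631 and 649 CPM in control libraries given bortezomib, against 365, 372 and 384 CPM in Lo19S and 359, 364 and 324 CPM in control libraries given DMSO, and was called higher with the drug in both states. TRNT1, which adds the terminal CCA, rose by 0.73 ± 0.065 in Lo19S and 0.63 ± 0.064 in control cells, and RTCB, the tRNA splicing ligase, by 0.61 ± 0.047 and 0.59 ± 0.048. Of the 4 genes that complete mitochondrial charging, QRSL1 and GATC, subunits of the glutaminyl-tRNA amidotransferase, were higher in both states while their partner subunit GATB was lower: 0.66, 0.41 and -0.21 in Lo19S cells, against 0.71, 0.70 and -0.28 in control cells. With library totals 1 of the 4 was higher and 1 lower in Lo19S cells. MTFMT, the methionyl-tRNA formyltransferase, was not called in either state.

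Of 9 mitochondrial translation factors, 4 were higher and 1 lower in Lo19S cells and 3 and 2 in control cells (3 and 5, and 2 and 7, with library totals), and the higher shares lay near the 37.8% and 39.2% of all tested genes. GFM1, an elongation factor, rose by 0.66 ± 0.040 in Lo19S and 0.19 ± 0.041 in control cells, and the difference of 0.47 ± 0.057 was called (adjusted p = 8.06e-09, edgeR). All 4 tested cytosolic elongation factor genes rose in both states, and the difference was called negative in 3 of them, beside 13.4% of all tested genes, the reverse of most cytosolic synthetases. EEF2, the translocation factor, rose by 0.47 ± 0.031 in Lo19S and 0.80 ± 0.031 in control cells. With library totals 1 of the 4 was higher and 1 lower in Lo19S cells, and 3 were higher in control cells.

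ATF4 and a list of its targets were also set beside the cytosolic class. ATF4 mRNA had 303, 280.2 and 279.6 CPM in Lo19S and 348, 334 and 343 CPM in control libraries given bortezomib, against 138, 134 and 131 CPM in Lo19S and 130.4, 130.2 and 148 CPM in control libraries given DMSO. It was thus up in both states but less so in Lo19S cells, with a difference of -0.23 ± 0.062 (adjusted p = 0.00346, edgeR). Of 22 ATF4 target genes that are not synthetases, 21 were called higher with bortezomib in Lo19S cells and 18 higher and 2 lower in control cells (edgeR), beside 37.8% of all tested genes higher in Lo19S cells and 39.2% higher and 42.2% lower in control cells; with library totals the counts were 16 and 3 in Lo19S cells and 14 and 6 in control cells. The difference of responses was positive in 13 and negative in 3 of them (11 and 4 without the third control DMSO library), with a median of 0.27, beside 14.4% and 13.4% of all tested genes. Part of this lay in the DMSO libraries, where 2 of the 22 were higher and 9 lower in Lo19S than in control cells, with a median of -0.16, beside 11.7% and 13.0% of all tested genes. Read directly under bortezomib, 8 were higher and 5 lower in Lo19S cells, with a median of 0.10, beside 22.0% and 21.2% of all tested genes; without the third control DMSO library 10 were higher and 5 lower. ASNS, asparagine synthetase, rose by 2.36 ± 0.053 in Lo19S and 2.06 ± 0.055 in control cells, and PSAT1, an enzyme of serine synthesis, by 1.21 ± 0.047 and 0.64 ± 0.048. PPP1R15A, a phosphatase subunit that reverses the stress signal, rose less in Lo19S cells, by 3.39 ± 0.059 against 4.63 ± 0.056. Whether ATF4 acted on any synthetase gene was not tested.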

How the data were processed

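The 12 libraries were stranded poly(A) RNA-seq, per the labels' protocols; STAR 2.5.4b, featureCounts 1.6.1 and GRCh37 are named in the submitters' processing notes. The values deposited by the authors are raw read counts for 57773 genes. The strand setting of the counting is not given in the sources used here; 18 members share exonic bases with a gene on the opposite strand and 4 with one on the same strand (GENCODE annotation). Counts were tested with edgeR 4.0.16 in R 4.3.3: filterByExpr, TMM scaling, and a robust quasi-likelihood F test with 1 coefficient per group over all 12 libraries, with Benjamini-Hochberg adjustment over 14714 genes and calls at an adjusted p below 0.05. SE is the absolute log2 fold change divided by the square root of F. The fit was tested on simulated data in which few genes changed. That does not test the scaling under bortezomib, where most genes were called. Alternatives were DESeq2 1.42.0, median-ratio factors, library totals, no filter, a fit without the robust option, only the groups compared, a replicate block, and leaving out each library in turn.

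All 38 members may be named; levels in every library are given for the 3 cytosolic and 3 mitochondrial members with the largest called change in control cells given bortezomib and under DMSO, for up to 4 per compartment called in the difference, and for the scaffolds. Other members appear by fold change, and FARSA and QARS1 also by mean; the context genes come from fixed lists. The members and lists were chosen with earlier results of these data known. Depth ranged between 7376597 and 15003480 counts, and the call of a weakly counted gene such as SARS2 or PARS2 is limited by it.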

Additional observations from a re-analysis of the deposited data

Results flagged for a closer look

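The bortezomib response differed between Lo19S and control cells in 17 of the 38 members by the test of the difference itself (edgeR adjusted p below 0.05), which is why they are listed for a closer look; 27.8% of all tested genes were called in that test, 14.4% with a positive and 13.4% with a negative difference. The values are log2 response in Lo19S cells minus log2 response in control cells. Larger rises in Lo19S cells gave 0.51 for AARS1, 0.41 for GARS1, 0.35 for TARS1, 0.25 for IARS1, 0.25 for SARS1, 0.23 for EPRS1, 0.20 for WARS1, 0.20 for YARS1 and 0.20 for FARSB. A smaller rise gave -0.32 for HARS1. Less negative responses in Lo19S cells gave 0.57 for IARS2, 0.50 for AIMP2, 0.38 for FARS2, 0.28 for LARS1, 0.26 for FARSA, 0.18 for EARS2 and 0.15 for QARS1. Library totals in place of TMM turned no sign among these 17.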

How the results depend on the processing

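Among member results called at either setting, direction reversed only with library totals, in 14. Values called at neither setting changed sign under other alternatives too, as RARS1 did with no filter, to -0.031 with bortezomib in control cells and -0.018 in Lo19S cells. With library totals, in control cells given bortezomib, AARS1 was -0.13, KARS1 -0.14, RARS1 -0.34, AARS2 -0.078, HARS2 -0.27, AIMP1 -0.11 and EEF1E1 -0.15. With the same library totals, in Lo19S cells given bortezomib, KARS1 was -0.053, RARS1 -0.26, AARS2 -0.20, HARS2 -0.062, LARS2 -0.27 and WARS2 -0.28. Between states under bortezomib KARS1 was 0.089. The same setting gave 7 lower cytosolic, 1 higher and 12 lower mitochondrial members in control cells. It gave 5 lower cytosolic, 1 higher and 13 lower mitochondrial members in Lo19S cells. It also gave 0 lower mitochondrial members between states under bortezomib and 6 positive mitochondrial differences; by construction it leaves in the fall of the typical gene. Under DMSO, lower mitochondrial members fell to 1 with DESeq2, library totals, a fit without the robust option, only the groups compared or the replicate block. No filter left 0 higher and 2 lower cytosolic members there, and only the groups compared 1 and 0. Positive mitochondrial differences numbered 1 with DESeq2, median-ratio factors (which also gave 1 negative), no filter or the replicate block, and the cause was not tested. Leaving out single libraries gave 0 to 3 higher and 1 to 6 lower cytosolic members and 0 to 1 higher and 1 to 2 lower mitochondrial members under DMSO, 1 to 2 lower mitochondrial members between states under bortezomib, and 1 to 4 positive and 0 to 1 negative mitochondrial differences. Counts over all genes stayed within 1.5 times under each alternative. Replicate numbers showed no pairing in the correlation of deviations, which was -0.072 to 0.026 over 18 same-numbered pairs and -0.031 to 0.062 over 36 others. This check cannot exclude a pairing, because counting noise makes up much of such deviations. The replicate block ended 6 member calls and gave 3445 called genes under DMSO in place of 3628.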
